A study of Mus musculus with 12 samples.

Results

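The comparison described here is E14 mouse embryonic stem cells that carry a Mettl3 knockout, named Mettl3-KO in the labels, against E14 wild-type cells, both growing without the inhibitor. Its members are the 6 libraries whose labels give E14 cells and the FBS condition, 3 knockout and 3 wild type, of 12 libraries in the series. The other 6 libraries are the same genotypes after 2 weeks with 200 nM INK128, an inhibitor of the kinase mTOR, which the study calls paused. Both growing groups were kept for 2 weeks on gelatin in medium with serum (FBS) and the cytokine LIF. All groups share the E14 line, the medium and the polyA-selected, strand-marking RNA library. The labels do not say whether the knockout is 1 clone, nor whether replicates are separate cultures, so p-values measure the spread between these samples, which may be technical. E14 is an established line derived from the inner cell mass of a mouse embryo.

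Mettl3 is the methyltransferase at the core of the complex that writes N6-methyladenosine (m6A), the most abundant internal modification of mRNA. The complex holds the partner Mettl14, the adaptor Wtap and further subunits such as Virma, Rbm15 and Zc3h13. Reader proteins of the Ythdf and Ythdc families bind the mark, and marked transcripts are known to be turned over faster. In mouse embryonic stem cells m6A is known to limit the lifetime of pluripotency transcripts. The files hold RNA levels only, and m6A itself was not measured in them.

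The 6 libraries held 12027770 to 39566713 counts. The wild-type library of replicate 1 stood apart. It had the fewest counts, and 1187 of the tested genes were over 2-fold from the mean of its 2 partners on the CPM plus 1 scale, against 176 and 214 for those partners and 0 to 8 for the knockout libraries. Ribosomal RNA (Rn45s) took 12.9% to 28.0% of the counts over the 6 libraries. Counts were compared on a relative scale, as CPM (counts scaled to a common library size) with TMM factors, and on a per-cell scale, with library size set from the ERCC spike-in RNA that was added to RNA from equal cell numbers. A gene was called where the edgeR quasi-likelihood adjusted p was under 0.05. Stem cell identity was checked with part of a marker set: Pou5f1, Sox2, Nanog, Esrrb and Sall4 were high in every growing library, the lowest value being 171 CPM for Nanog. The marker set also held Zfp42, Dppa5a and Utf1, which this check leaves out, so it does not show whether the whole set was high. Zfp42, Pou5f1 and Esrrb fell in knockout on the relative scale, as described below. Zscan4c, a mark of the 2-cell-like state, was at 0 CPM in the wild-type libraries and at up to 0.174 CPM in knockout.

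The targeted gene was measured first. Mettl3 RNA was 31.6, 36.5 and 33.0 CPM in the wild-type libraries and 25.8, 27.8 and 28.4 CPM in the knockout libraries. The groups did not overlap, and the log2 difference was -0.30 (SE 0.09, edgeR adjusted p = 0.0126). Mettl3 was not called per cell (log2 difference -0.20, edgeR adjusted p = 0.7). It was called in 5 of the 6 fits that left out a library. Transcript of the targeted gene was thus present in all knockout libraries. Gene-level counts do not show which part of the gene was deleted or whether protein is made, so they do not check the label. Genes of the Y chromosome separated the groups completely. Ddx3y, a Y-linked RNA helicase, was at 0.0975, 0.0278 and 0.246 CPM in wild type and at 72.3, 66.8 and 74.8 CPM in knockout, 592-fold higher from counts with 9 reads in wild type (95% counting interval 312 to 1296, counting error only). Uty was 809-fold higher (interval 277 to 3926) from 3 wild-type reads, and Eif2s3y 927-fold (interval 362 to 3402) from 4. Erdr1, assigned to chromosome Y, was 25.9 ± 5.39 CPM (SD, n = 3) in wild type and 216 ± 18.9 CPM in knockout. Each of the 7 tested members of the Y-linked list was called higher on both scales. The genotype and the difference in Y-linked RNA cannot be told apart in this design. In bulk RNA, fewer cells with a transcript and less of it per cell cannot be told apart either.

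Of 15281 genes tested, 4455 (29.2%) were higher and 4396 (28.8%) were lower in knockout on the relative scale. At least 2-fold, 2407 were higher and 1263 lower. Per cell, 2917 (19.1%) were higher and 1499 (9.81%) lower, and with the replicate number as a block 3707 were higher and 2620 lower. Without the wild-type library of replicate 1 the relative counts were 5240 and 5549, and the per-cell counts 2846 and 1409. Called on both scales in the same direction were 2902 genes higher and 1456 lower, and 0 genes were called in opposite directions. The 3 replicates of a group did not overlap the other 3 at 8997 genes (58.9%). Scaling by library totals without TMM moved the median of all genes from -0.03 to 0.16 in log2 and the share of calls that were higher from 50.3% to 67.4%. Per cell, 66.1% of the calls were higher, but the majority turned without knockout replicate 2, to 2274 higher and 2797 lower (44.8% higher), and without knockout replicate 1 the share was 80.3%. Many further members of the gene lists are named below beside those that the rule for named genes gives, and those were chosen after their values were seen.

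**Figure D1:**
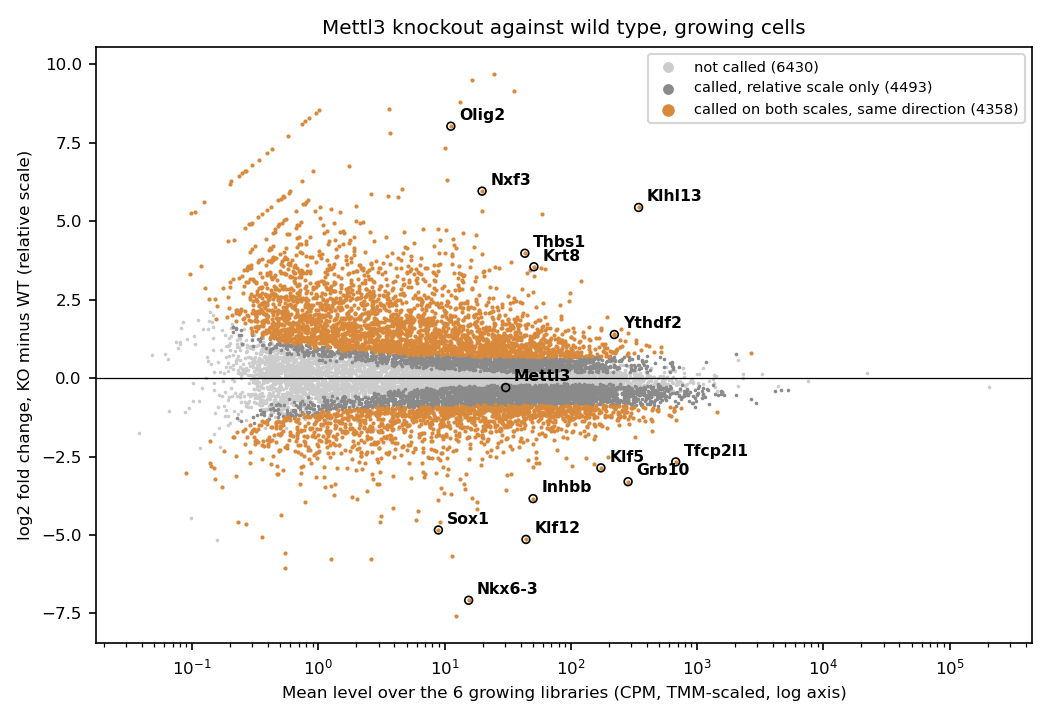
Each point is 1 of the 15281 genes tested, by its mean level over the 6 growing libraries (CPM, log axis) and its log2 fold change, knockout minus wild type, on the relative scale. Orange genes (4358) were called on both scales in the same direction, and circled genes are named in the text.

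The writer list holds 8 genes of the Mettl3 complex and 4 other RNA methyltransferases. Of the 8, 5 were higher and 2, Mettl3 and Mettl14, were lower, and of the other 4, 3 were lower. Over all 12, 5 were higher and 5 lower, against 29.2% and 28.8% of all genes, with a list median of -0.06 against -0.03. Mettl14, the partner of Mettl3, fell: it was 42.7, 40.8 and 37.3 CPM in wild type and 26.0, 24.6 and 24.8 CPM in knockout, a log2 difference of -0.68 (SE 0.08, edgeR adjusted p = 1.29e-05). Wtap, which anchors the complex in nuclear speckles, rose from 163, 172 and 176 CPM to 251, 253 and 263 CPM (log2 0.59, SE 0.07, edgeR adjusted p = 1.43e-05). Rbm15b rose by 0.50 in log2 and Cbll1 by 0.35, and Virma, the scaffold of the complex, was called higher as well. Rbm15 was called (0.46, edgeR adjusted p = 0.0242), but the groups overlapped and it was called in only 2 of the 6 fits that left out a library. Pcif1, which methylates cap-adjacent adenosine, fell (-0.72), as did Mettl16 (-0.39) and Zcchc4 (-0.20), 2 other RNA methyltransferases. Zcchc4 was called in 1 of 6 fits that left out a library. Per cell 0 of the 12 were called by edgeR, and with the block 3 were higher and 2 lower. Without wild-type replicate 1, 5 were higher and 6 lower. The demethylase Fto fell by 0.58 in log2 (81.2, 80.2 and 83.1 CPM against 53.8, 55.3 and 54.3 CPM). Fto is on chromosome 8, where the median of its 49 nearest tested neighbours was -0.23. Alkbh5 was not called (0.13, edgeR adjusted p = 0.278).

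Of 12 reader genes, 5 were higher and 4 lower (2 and 0 per cell, 4 and 2 with the block), and without wild-type replicate 1, 6 and 5. Ythdf2, the reader that directs marked mRNA to decay, rose on both scales. It was 90.3, 135 and 141 CPM in wild type and 314, 328 and 318 CPM in knockout, so that the groups were far apart (log2 1.39, SE 0.14, edgeR adjusted p = 3.42e-06, and 1.48 per cell). The nuclear reader Ythdc1 rose from 136, 190 and 160 CPM to 292, 303 and 324 CPM (log2 0.92, 1.01 per cell). Ythdf1 rose on the relative scale (0.66, edgeR adjusted p = 0.00139), with 115, 187 and 175 CPM against 241, 254 and 261 CPM. For these 3 genes the groups did not overlap. Ythdf3 (0.18, edgeR adjusted p = 0.059) and Ythdc2 (-0.19, adjusted p = 0.134) were not called. Igf2bp3 fell by 0.81 in log2 and Igf2bp1 and Igf2bp2 rose by 0.51 and 0.43. Igf2bp1 is on chromosome 11, where the median of its neighbours was 0.59. The RNA-binding protein Fmr1 fell by 0.75 in log2, with 174, 168 and 168 CPM in wild type against 102, 101 and 102 CPM in knockout.

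The consensus that the writer complex prefers contains GGACT. Windows of 25 bases around the first GGACT of the longest exon are shown for a reader gene that rose and for 4 other genes with large changes, to show the letters that the count per transcript below refers to. The genes were chosen after their values were seen. The windows were read from GRCm38 with GENCODE vM21 transcripts, in transcript direction, with GGACT in capitals. The Klf12 window is in coding sequence and the other 4 are in the 3′ UTR. Whether any of these sites is methylated was not measured.
Ythdf2 (chr4:132186832-132186856, minus strand, 5 GGACT in the transcript): aagaaaattaGGACTttttttctta
Thbs1 (chr2:118125144-118125168, plus strand, 13 GGACT): tgcatagtgtGGACTtgtaaagcct
Klf5 (chr14:99313745-99313769, plus strand, 3 GGACT): tacttgacgtGGACTcgtttttttt
Klf12 (chr14:99875188-99875212, minus strand, 8 GGACT): tcaagtgcgcGGACTgtgaccgcag
Grb10 (chr11:11933353-11933377, minus strand, 7 GGACT): tcccacccaaGGACTcagaacaaca

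Naive pluripotency genes were mostly lower. Of 28 tested members of the naive and general list, 18 were lower and 6 higher, with a median of -0.57 against -0.03 for all genes. Without the wild-type library of replicate 1, 21 were lower and 6 higher. Per cell, 10 were lower and 3 higher, and with the block 13 and 5. Leaving out chromosomes 1, 3, 8, 11 and Y from the fit, 12 of 20 were lower and 5 higher. Under library totals without TMM 12 of the 28 were lower and 6 higher. Klf5, a naive factor, was 398, 219 and 297 CPM in wild type and 46.1, 42.8 and 36.8 CPM in knockout (log2 -2.86, SE 0.20, edgeR adjusted p = 2.5e-07). Tfcp2l1 was 1839, 788 and 884 CPM against 198, 178 and 176 CPM, a log2 difference of -2.67 (SE 0.26). Tfcp2l1 lies on chromosome 1, and the median of its neighbours was -0.67. Wild-type replicate 1 was the highest library for both genes, and without it the differences were -2.65 and -2.21. Tbx3 (-2.80), Gbx2 (-2.69), Klf4 (-1.51), Tcl1 (-1.39), Esrrb (-1.37), Nr0b1 (-1.31) and Tdgf1 (-1.30) also fell on both scales. Esrrb was 906, 366 and 408 CPM in wild type against 207, 224 and 217 CPM in knockout, and the difference was -0.86 without wild-type replicate 1.

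Pou5f1 (Oct4), the core pluripotency factor, fell by 0.74 in log2 on the relative scale, with 601, 928 and 960 CPM in wild type and 424, 526 and 543 CPM in knockout (SE 0.16, edgeR adjusted p = 0.00164). It was not called per cell (-0.63, edgeR adjusted p = 0.149). Sox2 (-0.08) and Nanog (0.09) were not called, and the libraries overlapped for both. Zfp42 fell by 0.55 and was not called per cell. Against the direction of most of the list, Dppa3 rose from 2.44, 7.24 and 5.09 CPM to 33.5, 31.9 and 32.6 CPM (log2 2.64), and Klf2 (0.70), Tfap2c (0.70), Fgf4 (0.52), Sall4 (0.36) and Fbxo15 (0.62) rose. Klf2 was called in 2 and Tfap2c in 1 of the 6 fits that left out a library, and the groups overlapped at Klf2.

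Of the Myc genes, Mycn rose from 98.4, 177 and 196 CPM to 258, 308 and 325 CPM (log2 0.91, SE 0.19, edgeR adjusted p = 0.00137). Myc was not called (-0.81, edgeR adjusted p = 0.0543). It was 29.9, 121 and 100 CPM in wild type and 45.9, 52.3 and 46.2 CPM in knockout, so that wild-type replicate 1 was the lowest library of all. Of 30 growth genes activated by Myc, 14 were lower and 3 higher (3 and 1 per cell, 10 and 5 with the block), which is 46.7% lower beside 28.8% of all genes. Without wild-type replicate 1, 23 were lower and 5 higher.

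Genes of the pathway through which LIF acts were also mostly lower. Of 15 members, 11 were lower and 3 higher, with a median of -0.87 (without wild-type replicate 1, 11 and 3, with -0.72), and per cell 8 were lower and 2 higher. Stat3, the transcription factor of the pathway, was 174, 123 and 126 CPM in wild type and 80.1, 73.3 and 77.4 CPM in knockout (log2 -0.87, SE 0.12, edgeR adjusted p = 4.77e-05). Pim1 (-1.16), Pim3 (-1.03) and Bcl3 (-1.71) fell with it, as did the receptor Lifr (-0.48) and the feedback inhibitor Socs3 (-0.45). The kinases Jak1 (0.51) and Jak2 (1.48) and the inhibitor Socs1 (1.30) rose. Junb (-1.04) is on chromosome 8, where its neighbours had a median of -1.02. Gbx2, Klf4, Tfcp2l1 and Stat3 are also members of the naive list, so the counts of the 2 lists are not separate.

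Of 20 formative and primed genes tested, 12 were higher and 4 lower (median 0.61), and per cell 9 and 2. Without wild-type replicate 1, 12 were higher and 7 lower. With the other scalings tried, 12 or 13 were higher and 2 to 4 lower. Dnmt3b, a de novo DNA methyltransferase, was 77.7, 184 and 177 CPM in wild type and 282, 370 and 366 CPM in knockout (log2 1.21, SE 0.24, edgeR adjusted p = 0.00104). Its cofactor Dnmt3l rose by 1.30 and Zic2 by 1.84 (11.2, 29.3 and 30.7 CPM against 70.7, 93.8 and 95.6 CPM). Sox3 (1.45), Pou3f1 (1.00), Fgf5 (1.49) and Pim2 (1.16) rose. Etv4 (-1.67), Dnmt3a (-0.77) and Grhl2 (-0.42) fell. Dnmt3a was called in 1 and Grhl2 in 2 of 6 fits that left out a library, and at both genes the groups overlapped. Wild-type replicate 1 was the lowest wild-type library for Dnmt3b, Dnmt3l and Zic2.

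**Figure D2:**
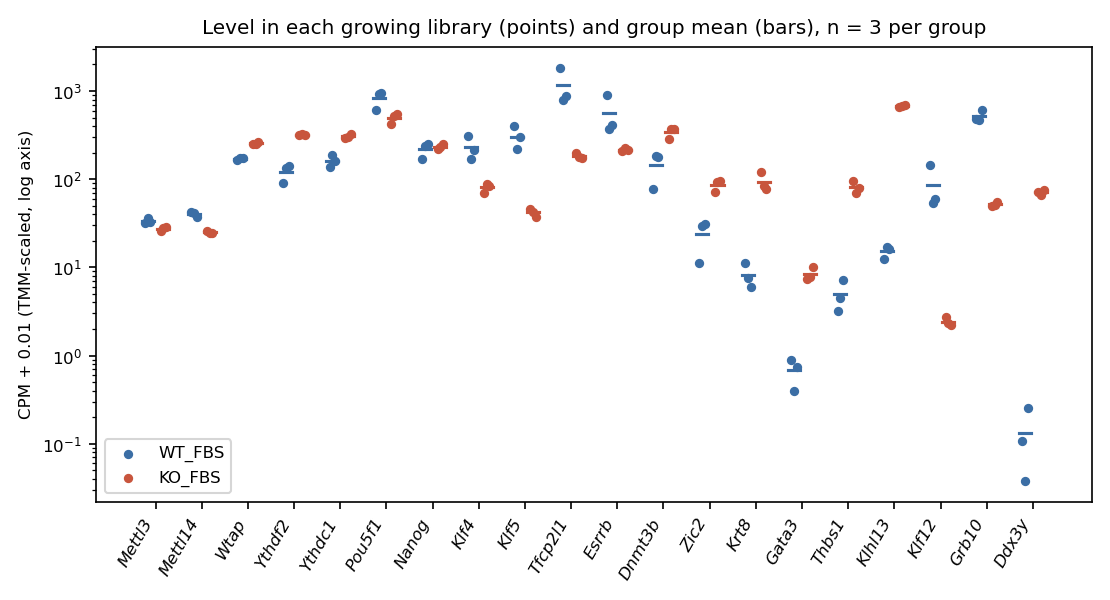
Levels of 20 genes in each of the 3 wild-type (WT_FBS) and 3 knockout (KO_FBS) libraries, as CPM plus 0.01 on a log axis, with group means as bars. The groups overlap at Nanog and lie close at Mettl3. Klf5, Tfcp2l1, Klf12 and Grb10 are lower in knockout, and Klhl13, Thbs1, Krt8 and the Y-linked Ddx3y are higher.

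Trophoblast genes, which mark the lineage that forms the placenta, were mostly higher, at low levels. Of 16 trophoblast genes tested, 12 were higher and 1 lower (median 2.36, and 12 and 1 per cell). Without wild-type replicate 1, 12 were higher and 2 lower. Krt8, a simple-epithelium keratin, was 11.3, 7.57 and 5.97 CPM in wild type and 120, 84.4 and 77.4 CPM in knockout (log2 3.55, SE 0.23, edgeR adjusted p = 1.63e-07). Its partner Krt18 rose by 3.44 and Krt7 by 4.38. The regulator Gata3 rose from 0.877, 0.39 and 0.737 CPM to 7.28, 7.85 and 10.0 CPM (3.77). Esx1 (3.90), Hand1 (3.4), Krt19 (2.72) and Plet1 (1.73) also rose, and Tfap2a fell (-1.30). The defining marker Cdx2 was not called (0.36) and was 0.634 to 1.92 CPM in knockout, Elf5 was below the low-count filter at up to 0.479 CPM, and Eomes was not called. The summed level of the list was 64.8 to 97.8 CPM in wild type and 244 to 306 CPM in knockout. Whether other cell types contribute to this sum was not tested.

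Other lineage lists were mixed. Of 14 neural genes tested, 9 were higher and 3 lower (8 and 3 per cell, and 9 and 3 without wild-type replicate 1). Olig2 rose from 0, 0.0835 and 0.105 CPM to 19.4, 25.2 and 22.4 CPM, 280-fold from counts with 6 wild-type reads (95% interval 128 to 764). Neurod1 rose by log2 3.12, and Pax6 rose by 1.83, from 0.877, 2.53 and 2.56 CPM to 6.54, 8.96 and 7.8 CPM. Sox1, the neural plate marker, fell from 13, 16.6 and 22.2 CPM to 0.523, 0.857 and 0.444 CPM (log2 -4.84). Stmn2 (-1.30) and Gsx1 (-2.85) fell. Of 18 extraembryonic endoderm genes, 6 were higher and 9 lower: Gata4 (-3.06) and Gata6 (-2.99) fell, and Foxa2 (3.88) and Col4a2 (1.09) rose. Of 16 mesendoderm genes, 6 were higher and 1 lower (6 and 3 without wild-type replicate 1), led by Kdr (3.59) and Foxh1 (1.37), while T and Mixl1 were not called on the relative scale (-1.16 and -0.45). Of 14 fibroblast genes, 10 were higher and 3 lower, among them Col3a1 (3.64), Fbn1 (1.86) and Col6a1 up, the last 21.2-fold from counts with 9 wild-type reads (95% interval 11 to 47), and Fn1 (-1.07) and Vim (-0.90) down. The summed level of that list was 1488 to 3172 CPM in wild type and 1064 to 1169 CPM in knockout, and Fn1 alone was 3048, 1303 and 1485 CPM in wild type.

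Yap target and angiomotin genes, which respond to cell contact and shape through the Hippo pathway, were mostly higher. Of 19 tested, 11 were higher and 1 lower (median 0.65), and per cell 8 were higher and 0 lower. Without wild-type replicate 1, 11 were higher and 2 lower. Cyr61, a matricellular target, was 11.6, 18.4 and 19.6 CPM in wild type and 50, 45.8 and 53 CPM in knockout (log2 1.56, SE 0.15, edgeR adjusted p = 3.2e-06). Ctgf rose by 1.15, Amotl2 by 1.22, Axl by 1.83, F3 by 1.74 and Amot by 1.88. The groups did not overlap at any of these 6 genes. Yap1 itself (-0.08) and Tead1 (0.09) were not called, and Nuak2 fell (-0.73).

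Yap acts through Tead proteins, whose binding motif contains GGAATG. It was searched on both strands of promoters of 300 bases from RefSeq (GRCm38.p6, around the annotated start). It was present in 14.7% of all 32851 promoter entries and in 16.6% of 27025 genes. Of the 11 members that rose, 10 had an entry, and 6 of those held the motif. The 4 members with an entry that did not rise were Yap1, Wwtr1, Tead2 and Wtip, and 3 of them held it. These 4 are few and include Yap1 and a Tead gene themselves. They cannot show whether the motif separates targets that rose from those that did not. A match is only a match of letters. The 3 promoters shown are those of genes that rose and hold the motif, with the motif or its reverse complement in capitals.
Cyr61 (Ccn1, chr3:145649936-145650235, minus strand): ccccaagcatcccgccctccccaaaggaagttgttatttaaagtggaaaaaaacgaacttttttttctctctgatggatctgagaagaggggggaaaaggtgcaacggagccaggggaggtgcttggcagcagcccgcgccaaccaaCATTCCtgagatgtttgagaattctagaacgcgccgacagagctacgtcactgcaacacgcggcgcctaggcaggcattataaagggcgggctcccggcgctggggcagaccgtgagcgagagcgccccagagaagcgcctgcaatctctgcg
Amotl2 (chr9:102717554-102717853, plus strand): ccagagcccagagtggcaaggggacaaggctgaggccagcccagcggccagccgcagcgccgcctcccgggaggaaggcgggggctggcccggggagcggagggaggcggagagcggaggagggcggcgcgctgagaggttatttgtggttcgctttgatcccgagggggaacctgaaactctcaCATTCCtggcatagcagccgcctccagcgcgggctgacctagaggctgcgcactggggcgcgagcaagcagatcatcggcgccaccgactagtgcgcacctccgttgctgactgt
Ajuba (chr14:54577612-54577911, minus strand): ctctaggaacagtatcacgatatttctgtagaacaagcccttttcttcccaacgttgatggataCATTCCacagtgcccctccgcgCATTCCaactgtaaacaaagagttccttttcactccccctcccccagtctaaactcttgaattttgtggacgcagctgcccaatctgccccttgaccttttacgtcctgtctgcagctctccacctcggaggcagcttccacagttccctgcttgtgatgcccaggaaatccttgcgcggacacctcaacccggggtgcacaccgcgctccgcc

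Among signalling genes, the ERK feedback inhibitors Spry2 and Spry4 fell. Spry2 was 239, 218 and 213 CPM in wild type and 82.9, 82.6 and 78.3 CPM in knockout (log2 -1.46, SE 0.08, edgeR adjusted p = 6.34e-08). Spry4 fell by 1.48, and over the 25 ERK genes 8 were lower and 6 higher, near the shares for all genes (11 and 7 without wild-type replicate 1). Fibroblast growth factor receptors changed in opposite directions: Fgfr2 rose from 9.55, 7.91 and 8.99 CPM to 35.6, 38.1 and 39.2 CPM (2.11), and Fgfr3 fell from 26.4, 15.3 and 14.9 CPM to 2.61, 2.32 and 2.47 CPM (-2.91). Of 19 BMP pathway genes, 9 were higher and 2 lower (10 and 3 without wild-type replicate 1), with the antagonists Nog (3.53) and Bambi (1.5) up and Bmp4 (-1.62) and Chrd (-1.66) down. Of 24 Wnt genes, 8 were higher and 7 lower, near the shares for all genes (8 and 10 without wild-type replicate 1). The receptor Fzd7 fell by 1.86 in log2.

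DNA replication genes fell together on the relative scale. Of 35, 31 were lower and 1, Fen1 (0.75), was higher, with a median of -0.74 (34 and 1 without wild-type replicate 1, and 20 and 1 under library totals without TMM). Per cell, 14 were lower and 1 higher. Mcm6, a helicase subunit, was 605, 699 and 718 CPM in wild type and 204, 211 and 215 CPM in knockout (log2 -1.68, SE 0.08, edgeR adjusted p = 2.45e-08). Cdt1, which licenses origins, fell by 1.56 and Gins4 fell by 1.17. Mcm6 is on chromosome 1 and Cdt1, Gins3, Gins4 and Orc6 are on chromosome 8, both with low medians described below. Leaving out chromosomes 1, 3, 8, 11 and Y from the fit, 22 of 25 were lower and 1 higher. Of 40 mitosis genes, 28 were lower and 2 higher (median -0.47), with 33 and 3 without wild-type replicate 1. Per cell 4 were lower and 0 higher, beside 9.81% and 19.1% of all genes, so the share lower was near that of all genes. With the block 17 were lower and 1 higher per cell. Nusap1, which binds spindle microtubules, fell by 1.14, and by 1.08 per cell. Of 21 G1 regulators, 12 were lower and 5 higher (7 and 5 under library totals): Ccnd3 (-1.84), E2f2 (-1.70) and the inhibitor Cdkn1b (-1.81) fell, and the inhibitor Cdkn1a rose by 1.23, from 7.9, 20.2 and 23.5 CPM to 37.8, 40.7 and 46.0 CPM.

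Ribosomal protein genes were mostly lower on the relative scale. Of 76 cytosolic ribosomal protein genes, 50 were lower and 2 (Rpl23 and Rpl38) higher, with a median of -0.39 (73 and 2 without wild-type replicate 1). Per cell 2 were lower and 0 higher, beside 9.81% and 19.1% of all genes, and with the block 17 were lower. Under library totals without TMM 10 were lower and 2 higher, beside 2489 lower and 5147 higher of all 15281 genes. In that fit, and per cell without the block, their share lower was under that of all genes. Rpl13 fell by 0.95 and is on chromosome 8, where its neighbours had a median of -0.37. With chromosomes 1, 3, 8, 11 and Y left out of the fit, 43 of 61 ribosomal protein genes were lower and 0 higher. Of 70 nuclear genes for oxidative phosphorylation 20 were lower and 0 higher (edgeR), a share of 28.6% lower beside 28.8% of all genes. Without wild-type replicate 1, 58 of them were lower, and per cell 2 were lower, or 6 with the block. Of 45 ribosome biogenesis genes, 22 were lower and 3 higher, with 37 and 3 without wild-type replicate 1. Per cell 3 were lower and 1 higher, shares under the 9.81% and 19.1% of all genes, and with the block 11 and 3. Of 45 mRNA decay genes, 26 were lower and 1, Cnot6l, was higher (32 and 2 without wild-type replicate 1), with 6 lower per cell and 15 with the block. Under library totals 15 were lower. Dis3, an exosome nuclease, was 290, 352 and 356 CPM in wild type and 136, 131 and 126 CPM in knockout (log2 -1.34, -1.26 per cell), and Exosc10 fell by 0.93. Of 44 Atf4 targets and serine synthesis genes, 28 were lower and 2 higher (median -0.78), and 20 were lower per cell (34 and 2 without wild-type replicate 1). Atf4, the regulator of amino acid supply genes, itself fell by 1.19. Slc7a1, an arginine transporter, fell by 2.29 and Atf5 fell by 1.89, and Aldh1l2 (1.37) and Slc38a2 (0.54) rose.

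**Figure D3:**
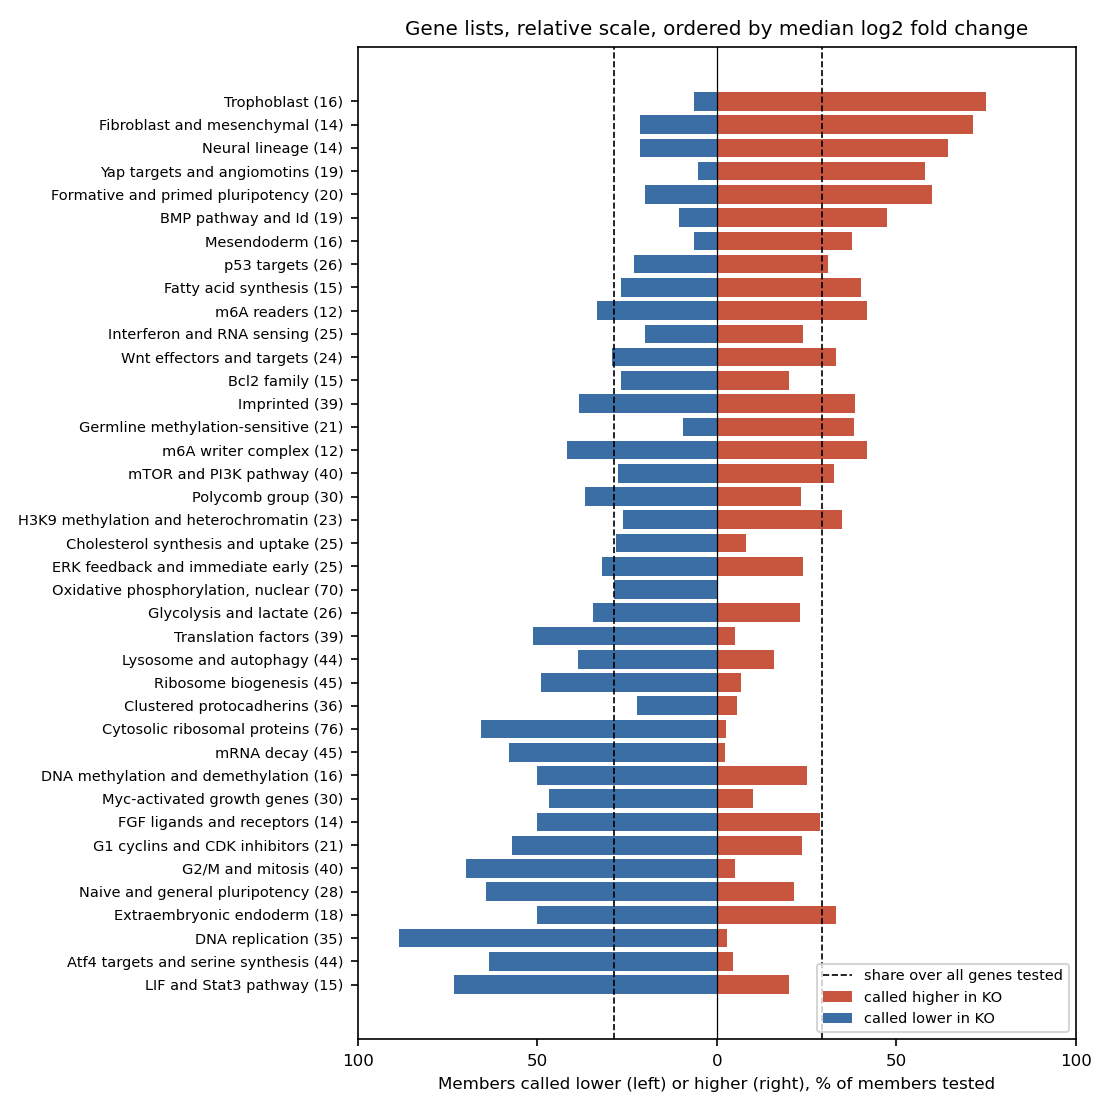
Share of tested members called lower (blue, left) and higher (red, right) in knockout on the relative scale, for each list with at least 12 tested members (number in parentheses), ordered by median log2 fold change. Dashed lines mark the shares over all genes, 28.8% lower and 29.2% higher.

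Chromatin genes were mixed. Ezh2, the Polycomb methyltransferase, was 266, 235 and 242 CPM in wild type and 125, 122 and 130 CPM in knockout (log2 -0.97, SE 0.08, edgeR adjusted p = 8.53e-07), and its partner Eed fell by 0.83. Cbx7 fell by 1.12 and Cbx2 (1.02) and Cbx8 (2.23) rose. Both of these rising genes are on chromosome 11, where their neighbours had a median of 0.34. Of 30 Polycomb genes 11 were lower and 7 higher, and under library totals 9 and 10, so that this list had no direction that held. The DNA demethylases diverged, with Tet2 lower (-1.21) and Tet3 higher (0.78), and Dnmt1 (-0.49) and its partner Uhrf1 (-0.78) fell. Imprinted genes moved both ways, with 15 of 39 higher and 15 lower. Grb10, which dampens insulin signalling, was 478, 465 and 606 CPM in wild type and 50.2, 51.4 and 55.3 CPM in knockout (log2 -3.30, SE 0.20, edgeR adjusted p = 8.68e-08). Meg3 (-3.05), Rian (-3.09), Rtl1 (-2.16) and Mirg (-2.16), which lie in 1 imprinted region of chromosome 12, all fell, and Dlk1 of the same region was not called (0.54). H19 rose by 3.44, from 7.12, 7.21 and 9.27 CPM to 106, 70.9 and 82.5 CPM, and its neighbour Igf2 rose by 2.13. Cdkn1c, an imprinted inhibitor of the cell cycle, fell by 1.83. Of 9 Hox genes that passed the filter, 5 were lower and 0 higher, and their sum was 13.7 to 23.1 CPM in wild type and 5.57 to 6.1 CPM in knockout.

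Among genes called on both scales with non-overlapping replicates, a mean of at least 5 CPM in the higher group and an assigned symbol outside chromosome Y, 1479 were higher and 946 lower. Klhl13, a substrate adaptor of a cullin ubiquitin ligase, was the highest with a mean of at least 50 CPM in the higher group. It was 12.5, 17 and 16.3 CPM in wild type and 653, 669 and 696 CPM in knockout (log2 5.44, SE 0.13, edgeR adjusted p = 1.88e-10). Eno1b (5.24) and Thbs1 (3.98), an extracellular matrix glycoprotein, followed. Thbs1 was 3.22, 4.45 and 7.2 CPM in wild type and 95.2, 68.8 and 80.3 CPM in knockout. Among these genes, which leave out chromosome Y and predicted or clone names, the 10 highest log2 changes of at least 5 CPM were Muc19, Olig2, Myl3, Fmr1nb, Olig1, Frk, Nxf3, Nlrp4a, Slc4a10 and Klhl13, and wild-type counts were near 0 for most. From counts, Fmr1nb was 169-fold higher (95% interval 88.7 to 370) with 9 wild-type reads, Frk 66.1-fold (35.7 to 138) with 10 reads and Nlrp4a 57.1-fold (29.9 to 126) with 9 reads. Muc19 had 1 wild-type read, a ratio of 546 (97.6 to 21585), and Myl3 had 2, a ratio of 267 (73.7 to 2213).

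The 10 lowest by the same rule were Nkx6-3, Kctd19, Klf12, Sox1, Trpm1, Hrk, Kcnj3, Skida1, Halr1 and Tex13. Klf12, a transcriptional repressor, was 145, 53 and 58.9 CPM in wild type and 2.7, 2.32 and 2.22 CPM in knockout (log2 -5.14, SE 0.36, edgeR adjusted p = 2.68e-07). Nkx6-3 was 44.7, 23.0 and 24.8 CPM against 0.349, 0.286 and 0.0634 CPM (-7.08). Inhbb, a subunit of activin B, fell by 3.84 in log2, from 47.8, 116 and 118 CPM to 7.54, 7.39 and 4.95 CPM. 3 of the 10 rested on wild-type replicate 1: Kctd19 was 14.3 CPM there and 0.529 and 0.527 CPM in its partners, and the log2 difference went from -5.78 to -2.80 without that library. Trpm1 went from -4.59 to -1.94 and Hrk from -4.58 to -2.45.

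Whole chromosomes differed in their median change. Chromosome 8 had a median log2 fold change of -0.45 over 794 genes, with 52.4% lower, and chromosome 1 had a median of -0.27 over 851 genes, with 43.7% lower. Chromosome 11 had a median of 0.19 over 1263 genes, with 38.5% higher. The other autosomes and X lay between -0.14 and 0.08. In the 3 knockout libraries the median of chromosome 8 genes of at least 5 CPM was -0.52 to -0.46 relative to the wild-type mean on the log2(CPM + 1) scale, and in the 3 wild-type libraries -0.06 to 0.04. Boundaries in the next sentences were set after the values were seen and get no test. From 60 to 100 Mb of chromosome 1 the median was -0.55, and from 100 Mb on it was -0.37, against 0.23 before 60 Mb. From 130 Mb of chromosome 3 the median was -0.80 over 101 genes, against 0.08 before it. From 80 Mb of chromosome 11 it was 0.45 over 602 genes, and before it -0.08. In paused cells the first 60 Mb of chromosome 1 had a median of -0.43, unlike in growing cells. The chromosome 8 median there was -0.44, and that of chromosome 11 from 80 Mb was 0.04. A change in the number of copies of these stretches and an effect of Mettl3 on their genes cannot be told apart.

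**Figure D4:**
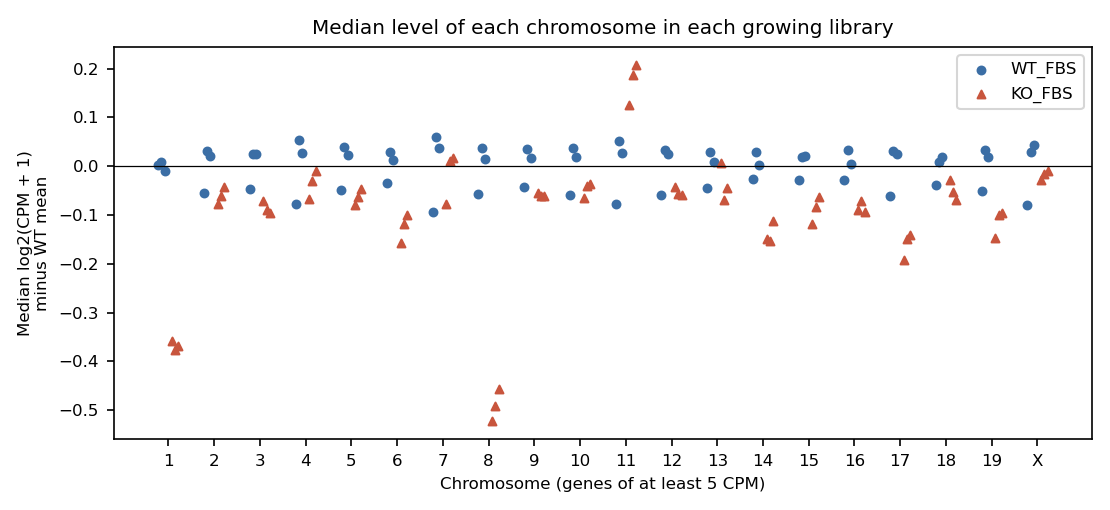
Median of log2(CPM + 1) over genes of at least 5 CPM, minus the wild-type mean, for each chromosome in each of the 3 wild-type (circles) and 3 knockout (triangles) growing libraries. Chromosomes 1 and 8 lie lower in all 3 knockout libraries and chromosome 11 higher.

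Changes differed little with the density of GGACT. Protein-coding genes were ranked into 5 bins of 2844 by GGACT per kb of the transcript with the longest coding sequence. The medians were -0.09, -0.02, 0.03, 0.01 and 0.03 from the lowest to the highest bin. By the length of the longest exon the medians were -0.19, -0.03, -0.01, 0.07 and 0.11. In the bin of longest exons 36.2% of genes were higher and 23.9% lower, and in the shortest 21.1% and 36.2%. In single libraries, the longest minus the shortest bin was 0.23, -0.14 and -0.08 in wild type and 0.36, 0.21 and 0.18 in knockout, so that wild-type replicate 1 lay among the knockout libraries and the groups overlapped. Within same-numbered pairs the knockout library was higher in 3 of 3. By transcript length the medians of the 5 bins were -0.09, -0.08, -0.02, 0.02 and 0.12, so the trend is not particular to the longest exon. The longest minus the shortest bin by length was 0.34, -0.22 and -0.12 in wild type and 0.25, 0.10 and 0.04 in knockout. By length, knockout replicate 1 was thus lower than wild-type replicate 1. For GGACT the highest minus the lowest bin was -0.01, 0.00 and 0.00 in wild type and 0.02, 0.08 and 0.08 in knockout. Genes are not independent replicates, and no test was made.

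**Figure D5:**
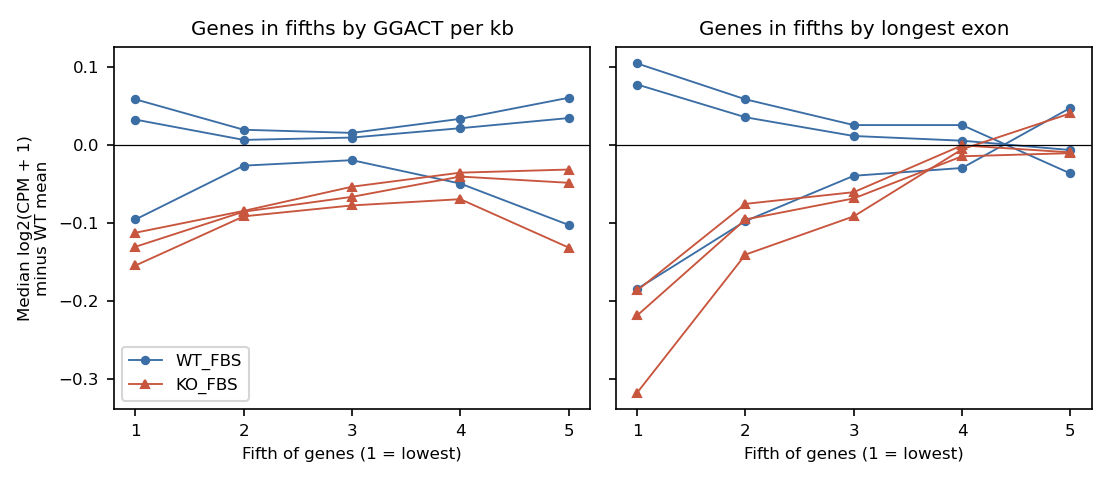
Median of log2(CPM + 1) minus the wild-type mean for genes in 5 bins by GGACT per kb (left) and by longest exon (right), 1 line for each growing library. In the shortest bin by longest exon, wild-type replicate 1 lies at -0.184, beside the knockout libraries at -0.317 to -0.186, and the other wild-type libraries lie at 0.078 and 0.105.

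A difference in RNA per cell was not larger than the spread between samples. Gene counts per ERCC count were 72.4, 73.3 and 74.6 in wild type and 47.4, 93.5 and 64.6 in knockout, means of 73.4 ± 1.15 and 68.5 ± 23.3 (SD, n = 3). The log2 difference was -0.16 (SE 0.28, exact two-sided permutation test p = 0.7), and 3 against 3 cannot go below p = 0.1. Without knockout replicate 1, which had the lowest ratio, it was 0.08. The ratio counts the extraction yield together with the RNA content.

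The same genotype comparison in paused cells uses other libraries. Of the 8851 genes called in growing cells, 5612 were called in the same direction in paused cells, which is 63.4% of the growing calls and 70.2% of the paused calls, and 313 were called in the opposite direction. The difference between the genotype effects was called at 2706 genes, and at 6500 without wild-type replicate 1 of the growing cells. Both comparisons use the same cell lines and the same estimate of the spread. Ythdf2 was higher in paused knockout cells as well (1.08), as was Wtap (0.51), and Klf5 was lower (-2.72). Mettl14 was higher in paused knockout cells (0.38), and the difference from growing cells was -1.05 (edgeR adjusted p = 7.07e-05). Nanog, not called in growing cells, was lower in paused knockout cells (-1.25), a difference of 1.34 (edgeR adjusted p = 0.000306).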

How the data were processed

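RNA was measured in 12 libraries, and the 6 growing libraries were compared here. Per the labels' protocols, polyA-selected, strand-marking libraries were made from equal numbers of cells, with ERCC spike-in RNA added to the RNA. The authors deposited raw read counts per gene and a table of log2 values scaled to the spike-ins (14495 genes). Per the submitters' processing notes, Trim Galore 0.4.0, featureCounts of Subread 1.5.0, edgeR 3.32.1 and the mm10 build were used. From the deposited counts, edgeR 4.0.16 (R 4.3.3, limma 3.58.1) was fitted to all 12 libraries with 4 group means by its robust quasi-likelihood test, after a filter of at least 10 counts (15 in total), with Benjamini-Hochberg adjustment over 15281 genes. The relative scale used TMM factors, and the per-cell scale used the 92 ERCC rows. Alternatives included DESeq2 1.42.0, other scalings, no filter, limma on the deposited log2 values, a replicate block and leaving out each library. The script was tested on simulated data.

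Replicate numbers come from the sample titles. Deviations from the group means correlated at 0.306, 0.12 and 0.235 for the 3 same-numbered pairs (15281 genes). The numbers were treated as pairing in the fits with a replicate block. The main fits on both scales did not use them. Wild-type replicate 2 correlated more with knockout replicate 3 (0.265) than with its own number, and wild-type replicate 3 with knockout replicate 2 at 0.0887. The values thus do not clearly pair replicates 2 and 3.

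Genes were named by a rule: the m6A genes and 10 pluripotency and growth genes, the 10 highest and 10 lowest changes of at least 5 CPM called on both scales with no overlap, outside chromosome Y and without predicted or clone names, the 3 highest and 3 lowest of at least 50 CPM, 4 Y-linked genes, and per list up to 5 called members with the lowest p plus those against its majority. Other named list members were chosen after their values were seen. The members and the gene lists were chosen with earlier results of these data known. Of 24421 gene rows, 23375 matched GENCODE vM21 by symbol, 692 by a synonym and 354 not at all. Columns of other samples numbered 0. Counting intervals are 95% intervals and cover counting error only. Some members of the gene lists are not reported here by name.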

Additional observations from a re-analysis of the deposited data

Results flagged for a closer look

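The knockout effect differed between growing and paused cells at 14 of 60 named genes tested, by the interaction term of edgeR at an adjusted p under 0.05. That is 23.3%, beside 17.7% of all genes tested (2706 of 15281), and 41.6% of all genes without wild-type replicate 1. The 60 are the m6A genes, the 10 pluripotency and growth genes, and the genes with the highest and lowest changes in growing cells, so that some were chosen for their change there. Values are the growing minus the paused log2 fold change. The difference was positive at Dnmt3l (1.12), Igf2bp1 (0.63), Igf2bp2 (0.94), Kcnj3 (2.83), Klhl13 (1.85), Nanog (1.34), Nlrp4a (3.43) and Nxf3 (2.77). Igf2bp1 is on chromosome 11, where the median over genes from 80 Mb was 0.45 in growing and 0.04 in paused cells. Whether the difference of 0.63 at Igf2bp1 goes with that of the stretch was not tested. The difference was negative at Igf2bp3 (-0.47), Klf12 (-1.65), Klf4 (-1.07), Mettl14 (-1.05), Rbm15 (-1.12) and Sox1 (-2.05). Each of the 14 stayed under an adjusted p of 0.05 without wild-type replicate 1. That fit is a weak check, because it called 41.6% of all genes. Whether the 14 keep the call in fits with fewer calls, such as library totals (1685), is not given here. Klhl13 rose in both conditions (5.44 growing, 3.59 paused), and Klf12 fell in both (-5.14 and -3.49). Mettl14 and Igf2bp2 were called in opposite directions in the 2 conditions.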

How the results depend on the processing

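Relative calls stayed within 1.5 times of 8851 under the settings tried except a fold limit: at least 2-fold, 3670 were called, 2407 higher and 1263 lower. Library totals without TMM gave 2489 lower. Per cell, the 6 growing libraries alone gave 2916 calls (762 lower), the replicate block 2620 lower and leaving out chromosomes 1, 3, 8, 11 and Y 968 lower. Leaving out 1 library each gave 905 (without knockout replicate 3) to 2797 (without knockout replicate 2) lower per cell. The block moved no other count of all calls by over 1.5 times. The count of genes whose effect differed between growing and paused cells (2706) went to 1685 under library totals and to 1821 to 6500 when 1 library was left out, the highest without wild-type replicate 1. These settings for that count were chosen after seeing the data. RNA per cell changed sign without knockout replicate 1, to 0.08 from -0.16, in a range of -0.41 to 0.08. Of 342 named genes called on the relative scale, 276 kept their call in every setting, 66 lost it in at least 1 and 0 reversed. Per cell, 143 of 215 kept it, 72 lost it and 0 reversed. The cause of these changes was not tested. Depth limits genes at 0 to 10 reads, whose folds are given with counting intervals.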

Other observations

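Of 21 germline genes that depend on DNA methylation, 8 were higher, 2 lower and 11 not called (9 higher and 3 lower without wild-type replicate 1). That is 38.1% higher and 9.52% lower, beside 29.2% and 28.8% of all genes. Per cell 5 were higher and 0 lower. Lysosome and autophagy genes depended on wild-type replicate 1: of 44, 7 were higher and 17 lower with it, and 16 were higher and 16 lower without it. Calcoco2, an autophagy receptor, rose by log2 3.27. Of 25 cholesterol genes, 2 were higher and 7 lower, and without that library 2 and 17. Of 40 genes of the mTOR and PI3K pathway, 13 were higher and 11 lower, near the shares over all genes, and 16 and 16 without that library. Of 26 p53 targets, 8 were higher and 6 lower (30.8% and 23.1%), near the shares over all genes. Without that library, 9 were higher and 11 lower. Over all genes the majority also turned without that library, from 4455 higher and 4396 lower to 5240 higher and 5549 lower. Of 25 interferon and RNA-sensing genes 6 were higher and 5 lower (8 and 7 without it). Clustered protocadherins, cell-surface adhesion genes, had 2 higher and 8 lower of 36, or 22.2% lower beside 28.8% of all genes, and 6 and 6 without that library.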
